A study of Homo sapiens with 8 samples.

Results

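The nuclear pore complex genes encode the proteins of the channel through which RNA and protein pass between nucleus and cytoplasm. The 33 genes described here were taken by symbol from a list of pore components, and each matched 1 of the 19958 protein-coding genes in a RefSeq table. A binding site was counted for a gene when its position lay inside the gene's GRCh38 span on the gene's strand, which gave 167 sites in the pore genes out of 37613 distinct positions in the list. The sites are contacts of YTHDF2, mapped in HEK293T cells, an established human embryonic kidney line. The assay was iCLIP2, in which ultraviolet light crosslinks a protein to RNA, the protein is pulled down with an antibody, and truncated cDNAs mark the crosslinked base. Libraries came from 4 samples given 20 µM STM2457, an inhibitor of the m6A methyltransferase METTL3, in 0.2% DMSO, and from 4 given 0.2% DMSO alone, each for 12 h, and all were labelled as wild type. The list gives 1 position and 1 score per row with no value for any library, so STM2457 and DMSO could not be set against each other, and neither replicate error nor read depth is known. No test was made, and the values below are a description of this single list.

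The pore is built of rings around a central channel. A Y-shaped complex forms the outer rings, an inner ring and transmembrane proteins anchor the structure in the nuclear envelope, and filaments on the cytoplasmic side and a basket on the nuclear side act in import and export. Many proteins of the channel, the filaments and the basket carry repeats of phenylalanine and glycine that bind transport receptors. YTHDF2 is a cytoplasmic reader of N6-methyladenosine (m6A) that recruits mRNA decay factors to the transcripts it binds.

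YTHDF2 sites were found in 27 of the 33 pore genes (81.8%), against 38.9% of all protein-coding genes. Of the pore genes, 12 had 5 or more sites, where 15% of all genes did, and 7 had 10 or more, where 4.95% of all genes did. Among genes with a site the median was 4 in pore genes and 3 in all genes. Per kb of gene span the order was reversed, with a median of 0.062 sites in pore genes with a site and 0.109 in all such genes. The median span of genes with a site was 63.6 kb and 31.7 kb. The median span was 58.8 kb for the pore genes and 24.0 kb for all genes. Expression in these cells and mature transcript length, either of which could move with these counts, were not used here, and their part was not tested.

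**Figure D1:**
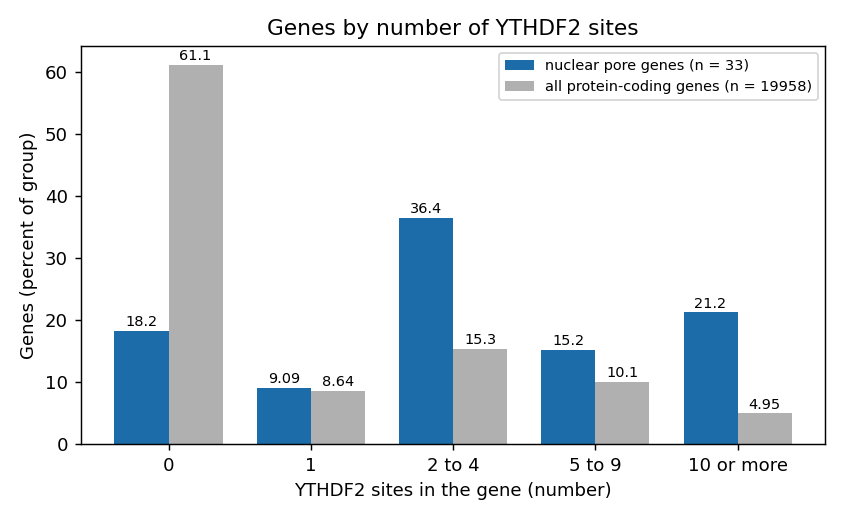
Share of genes (percent, vertical axis) by number of YTHDF2 sites in the gene (horizontal axis), for the 33 nuclear pore genes (blue) and all 19958 protein-coding genes (grey). Of the pore genes 18.2% had no site and 21.2% had 10 or more, against 61.1% and 4.95% of all genes.

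The sites were unevenly shared among the pore genes. RANBP2 alone held 28 of 167, and the 7 genes with 10 or more sites held 96, or 57.5%. Those genes were RANBP2 with 28, NUP153 with 13, RANGAP1 with 12, AHCTF1, NUP50 and NUP98 with 11 each, and NUP62 with 10. No site was listed in GLE1, NUP35, NUP54, NUP85, NUP93 or RAE1. Across the 33 genes the number of sites went with gene span at a Spearman rho of 0.43, or 0.38 without RANBP2, a description over genes of 1 list.

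**Figure D2:**
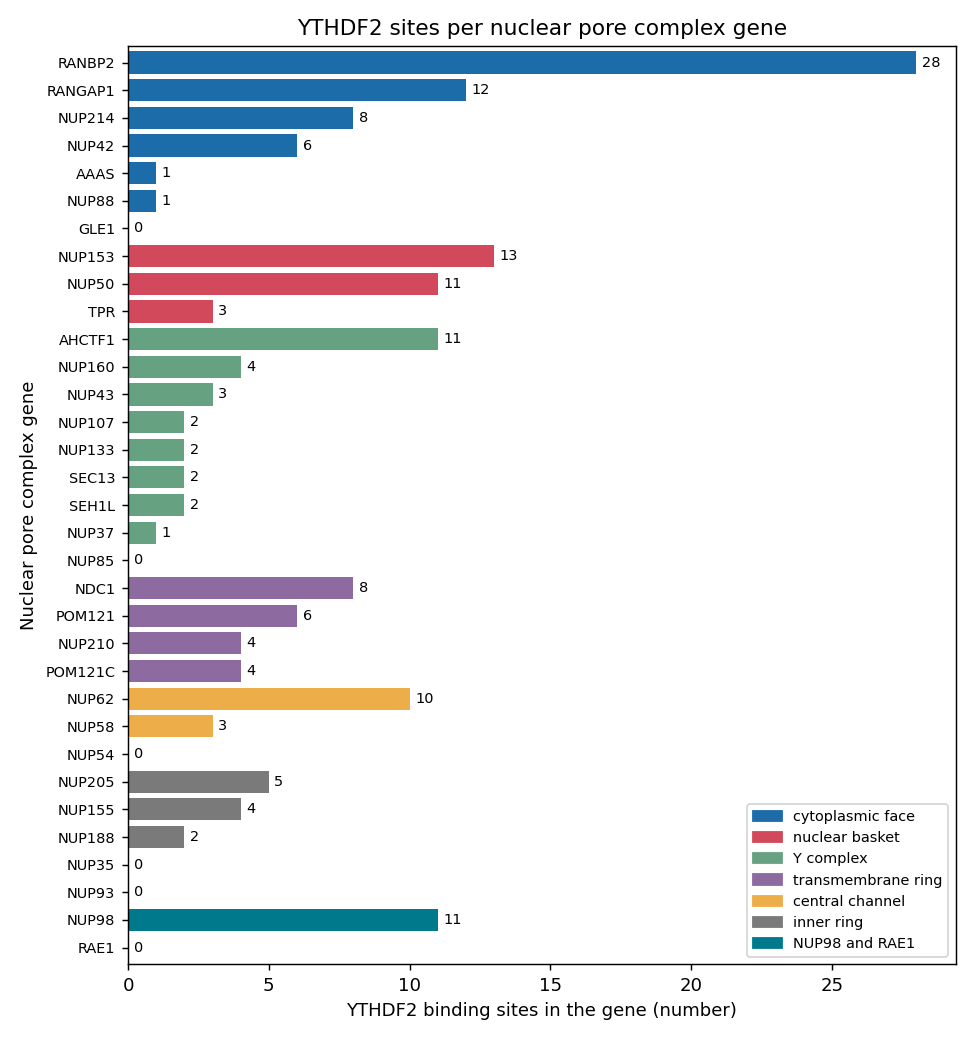
Number of YTHDF2 sites (horizontal axis) in each of the 33 nuclear pore genes (vertical axis), coloured and grouped by place in the pore. RANBP2 stands at 28, and 6 genes stand at 0.

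The cytoplasmic face had 56 sites in 6 of 7 genes. RANBP2, also called NUP358, is the main protein of the cytoplasmic filaments and a SUMO ligase. Its 28 sites by span include 3 that also lie in SOWAHC on the same strand, at 109615331, 109615770 and 109615958 on chromosome 2, because the table's RANBP2 span reaches 1123 kb. The other 25 lay within 48.1 kb, from 108735629 to 108783774. In that interval 17 sites formed 1 chain of 4.75 kb from 108763531 to 108768284, with each site at most 1 kb from the next, and 12 of the 17 had scores at or above the list's median of 8.67. The authors' score has no stated scale and is used only to rank sites within the list. By row order the list falls into a shorter and a longer part. Ranks across both assume 1 common scale, which was not tested. Some positions were on 2 rows of the list with different scores, and for these the higher score is given.

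A second RANBP2 chain of 4 sites spanned 1132 nt, from 108782643 to 108783774, and held its highest scores. The scores in that chain were 181, 128, 7.46 and 40.5. Thus the 2 highest-scoring sites of the gene lay 3′ of the longer chain, whose own highest score was 98.4. RANBP2 has close copies in the RGPD genes, and the 7 RGPD genes in the table had 0 sites. The handling of reads that match several copies is not stated in the labels, so counts in RANBP2 are uncertain.

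RANGAP1, which makes Ran hydrolyse GTP and is held at the filaments by RANBP2, had 12 sites on chromosome 22. A chain of 7 spanned 808 nt, from 41245765 to 41246572, and lay 986 to 1793 nt from the 3′ end of the gene. Scores in this gene ran from 0.079 to 63.8, with a median of 6.04, below that of the list. Its 2 5′-most sites, at 41286122 and 41285789, lay 65 and 398 nt after a start that RefSeq lists inside the gene. RANGAP1 therefore had sites near an internal start as well as near its 3′ end, but no exon annotation was used to say which transcripts hold them.

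NUP214, a filament protein with phenylalanine-glycine repeats that acts in mRNA export, had 8 sites on chromosome 9. Of these, 7 formed a chain of 1461 nt from 131197395 to 131198855, 35808 to 37268 nt of genomic distance before the gene's 3′ end. The remaining site, at 131233707, lay 956 nt from that end. The highest score, 98.7, was at 131197502, and the other 7 scores ran from 3.10 to 16.6.

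NUP42, which with GLE1 stimulates the helicase DDX19 in releasing exported mRNA, had 6 sites. All 6 lay within 458 nt on chromosome 7, from 23200207 to 23200664, and 342 to 799 nt from the 3′ end of the gene. Their scores were 62.8, 6.56, 3.42, 18.3, 21.4 and 13.8 from the 5′ to the 3′ side. NUP88, the partner of NUP214, had 1 site with a score of 7.06, and AAAS, which encodes ALADIN, had 1 with a score of 2.95, at 53321398 on chromosome 12, only 212 nt after the gene's start.

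The nuclear basket had 27 sites, 24 of them in NUP153 and NUP50. NUP153, which anchors the basket, had 13 sites on chromosome 6 between 17615890 and 17706493. Its highest scores, 160 and 114, were at 17637363 and 17637312, 51 nt apart. A chain of 4 sites from 17628892 to 17629450 had scores of 61.0, 14.3, 3.64 and 35.5 from the 5′ side. One site, at 17706493, lay 432 nt after the gene's start with a score of 8.52.

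NUP50, which binds importin alpha and aids release of imported cargo, had 11 sites on chromosome 22. They spanned 9.31 kb, from 45178463 to 45187768. Scores in NUP50 were high as a set, with a median of 22.5 and 10 of 11 at or above the list's median. Of the 11 positions, 3 were on 2 rows and entered with the higher score, 21.5, 22.1 and 165. Their lower scores were 0.46, 9.95 and 9.28. A chain of 6 from 45184754 to 45185540 had scores of 38.8, 106, 22.5, 22.1, 165 and 178. TPR, the coiled-coil protein of the basket fibres, had 3 sites, at 186371013, 186338223 and 186333190 on chromosome 1, with scores of 2.44, 2.55 and 1.74. The highest of the 3 ranked at percentile 17.6 of the list, so the basket genes ranged from high-scoring chains to a few low-scoring sites.

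**Figure D3:**
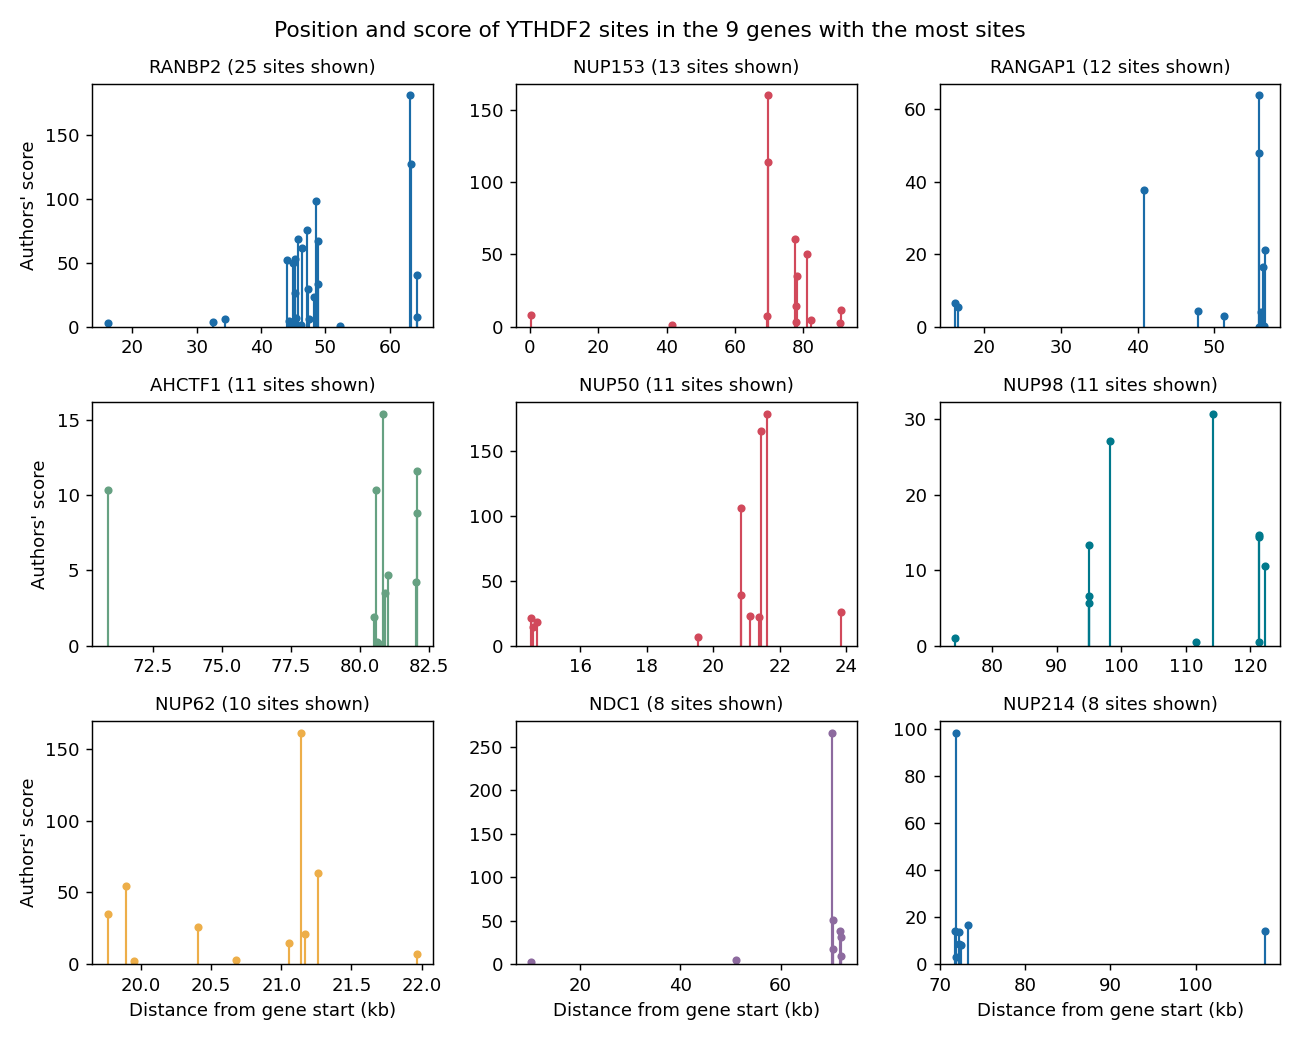
Authors' score (vertical axis, no stated unit) of each YTHDF2 site by distance from the gene's start (horizontal axis, kb) in the 9 nuclear pore genes with the most sites; each panel has its own scales, and the 3 RANBP2 sites that also lie in SOWAHC are left out. Sites form short chains, such as the 17 sites of RANBP2 over 4.75 kb and the 10 sites of NUP62 over 2.21 kb.

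The channel genes differed widely. NUP62, the central channel protein with phenylalanine-glycine repeats, had 10 sites in 1 chain of 2208 nt on chromosome 19, from 49907534 to 49909741, 709 to 2916 nt from its 3′ end. Its highest score was 161, at 49908360, and 7 of 10 scores were at or above the list's median. All 10 sites also lie in IL4I1, whose span on the same strand covers NUP62, so position alone does not assign them to 1 gene. NUP58, a partner of NUP62 in the channel, had 3 sites with scores of 59.0, 3.99 and 2.56, and NUP54, the remaining partner, had none.

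NUP98 encodes a precursor that is cleaved into NUP98, a protein with phenylalanine-glycine repeats, and NUP96, a subunit of the Y complex. It had 11 sites spread over 48.0 kb on chromosome 11. Among them were a chain of 4 from 3675293 to 3676229 at the 3′ end and a chain of 3 within 54 nt, from 3702572 to 3702625. Its highest score, 30.7 at 3683362, was below the highest score of NUP153, NUP50 or NUP62. RAE1, an mRNA export factor that binds NUP98, had no site.

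All 4 transmembrane ring genes had sites, 22 in total. NDC1, a membrane anchor that also binds ALADIN, had the highest score of any pore gene, 266 at 53767956 on chromosome 1, which ranked 139th in the whole list. That position was the 5′-most of a chain of 3 within 78 nt, whose other scores were 17.6 and 51.3. A second chain of 3, within 174 nt from 53766213 to 53766386, lay 735 to 908 nt from the gene's 3′ end and had scores of 37.7, 31.2 and 9.18 from the 5′ side. NUP210, a glycoprotein of the pore membrane, had 4 sites within 501 nt, all 230 to 730 nt from its 3′ end, with scores from 6.95 to 29.0.

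POM121 and POM121C are close copies of one another and encode membrane proteins with phenylalanine-glycine repeats. POM121 had 6 sites and POM121C had 4, all on chromosome 7. The POM121C scores ran from 20.3 to 41.6, and those of POM121 from 0.34 to 55.4. Each gene held a pair of sites 25 nt apart, at 72946468 and 72946493 in POM121 and at 75418537 and 75418562 in POM121C. Since the handling of reads that match both is not stated, the split between the copies is uncertain.

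The scaffold genes had sites in most cases but few in each. The Y complex, which carries the outer rings, had 27 sites in 8 of 9 genes, and AHCTF1 held 11 of them. The sites of NUP98, which also encodes NUP96 of the Y complex, are not counted here. AHCTF1 encodes ELYS, which brings the Y complex to chromatin when pores form after mitosis. Of its sites 10 spanned 1.58 kb on chromosome 1, from 246849852 to 246851434, and the nearest to the gene's 3′ end was 10754 nt from it. The scores were low in spite of the number, from 0.17 to 15.4 with a median of 4.71.

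The other Y complex genes had 4 sites or fewer. NUP160 had 4, and 3 of these, 681 to 995 nt from the gene's 3′ end, had scores of 0.081, 101 and 5.04 from the 5′ side. NUP43 had 3, with scores of 1.41, 52.8 and 3.62. NUP107, NUP133, SEC13 and SEH1L had 2 each and NUP37 had 1, with scores between 1.75 in NUP107 and 29.8 in SEC13. SEC13 and SEH1L serve outside the pore as well, SEC13 in the coat of secretory vesicles and both in the regulation of mTORC1. NUP85 had no site.

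In the inner ring, 3 of 5 genes had a site and 11 sites were found in all. NUP205 had 5, NUP155 had 4 and NUP188 had 2. Their scores were mostly low, with 2 of 11 at or above the list's median, both of them in NUP205 near its 3′ end, at 135646227 (18.9) and 135648552 (29.3) on chromosome 7. NUP155 ranged from 0.018 to 8.57. NUP93, the scaffold that holds the ring together, had no site in 120 kb, and NUP35, which links the ring to the membrane, had none in 44.2 kb.

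Grouped by protein rather than by place, the genes of phenylalanine-glycine nucleoporins held most of the sites. The 11 genes in this group (NUP42, NUP50, NUP54, NUP58, NUP62, NUP98, NUP153, NUP214, POM121, POM121C and RANBP2) were put together after the values were seen, so the contrast is a description only. Of them 10 had a site, and they held 100 of the 167 sites, or 59.9% (exact binomial 95% interval 52.0 to 67.4, which covers counting error only and treats sites of 1 gene as separate). The other 22 pore genes held 67 sites, with 17 bound. All 11 sites of NUP98 were counted in the first group, although that gene also encodes NUP96 of the Y complex. The median over bound genes was 9 sites in the first group and 3 in the second, and the median span over all genes of each was 69.5 and 58.2 kb. Without RANBP2, POM121 and POM121C the share was 48.1%. Leaving these out, 62 sites in 8 phenylalanine-glycine genes were left. The share was 56.5% without sites that also lie in another protein-coding gene, which drops all 10 sites of NUP62 and 3 of RANBP2.

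Scores were also higher in that group, again a description only, since the genes were put together after the values were seen. At or above the list's median lay 64 of the 100 sites of phenylalanine-glycine genes (64.0%, exact binomial 95% interval 53.8 to 73.4) and 27 of the 67 sites of the other pore genes (40.3%, 28.5 to 53.0), against 50.1% over all genes. These intervals treat sites of 1 gene as separate, and 28 of the 100 sites were in RANBP2. Across the 27 pore genes with a site, the number of sites went with the highest score at a Spearman rho of 0.75. Score is therefore not a trait separate from the number of sites. The median score percentile was 67.3 and 35.0. Positions on 2 rows entered with their higher score, and they made up 21.0% of sites in the first group and 7.46% in the second. With the lower score of each such position, 59 and 27 sites were at or above the median of the list scored in that way. Without RANBP2, POM121 and POM121C, and with the higher scores again, 40 of 62 sites in the first group were at or above the list's median (64.5%). The lower scores were not counted without these 3 genes. Of the 10 pore gene sites with a score of 100 or more, 8 were in RANBP2, NUP50, NUP153 and NUP62, and the others were in NDC1 and NUP160. The NUP62 site among them also lies in IL4I1. Scores of 100 or more made up 5.99% of sites in pore genes (interval 2.91 to 10.7) and 3.27% in all genes.

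**Figure D4:**
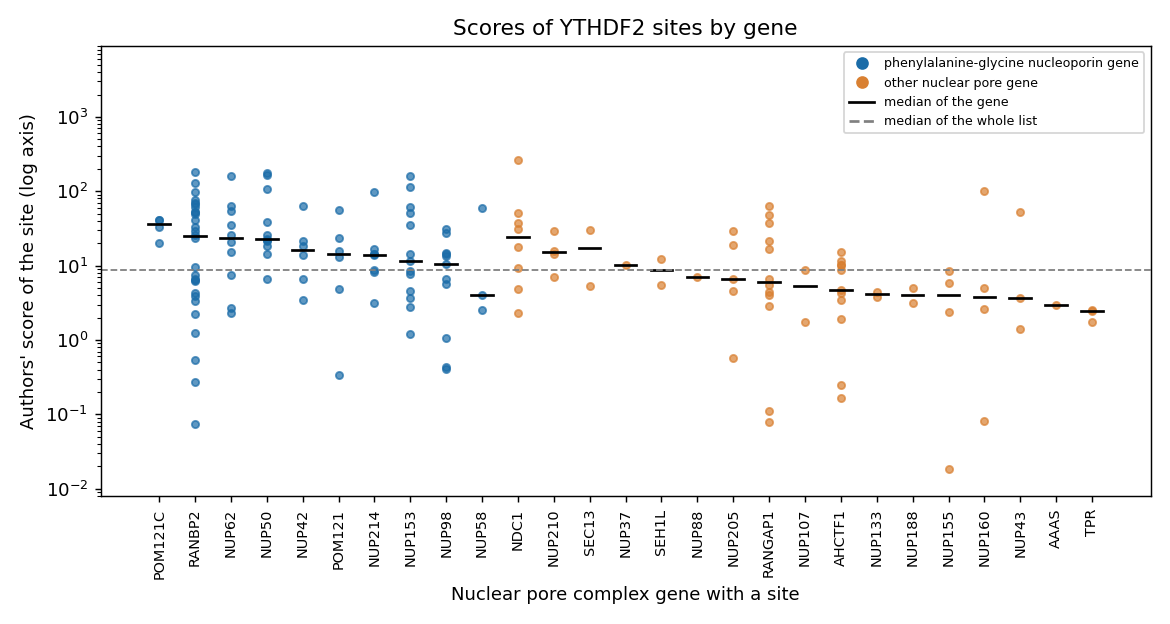
Authors' score of each YTHDF2 site (log axis, no stated unit) in the 27 nuclear pore genes with a site, with phenylalanine-glycine nucleoporin genes in blue on the left and the others in orange, each ordered by median (black bar). The median lies at or above that of the whole list (dashed, 8.67) in 9 of 10 blue genes and 5 of 17 orange ones.

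Sites lay mostly towards the 3′ ends of the pore genes, as in other genes. Leaving out RANBP2, whose table span runs far past its sites, 101 of 139 sites (72.7%, interval 64.5 to 79.9) were in the last 25% of the gene span, against 58.4% over all genes; with RANBP2 the count was 104 of 167 (62.3%). In 8 of the 26 genes every site was in that stretch, among them NUP37 with 1 site and SEH1L with 2. The same share of genes was not computed over all genes, so this count has no background beside it. In the last 1 kb lay 24 of these 139 sites (17.3%, interval 11.4 to 24.6), where all genes had 16.9%. With RANBP2, none of whose 28 sites lay there, the share was 14.4% of 167 (interval 9.43 to 20.6). In the first 1 kb lay 3 of 167 sites (1.80%, interval 0.37 to 5.16), where all genes had 5.43%. The 3 sites were those of NUP153, NUP155 and AAAS. Introns were not removed, so these positions are along the gene and not along the mRNA.

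**Figure D5:**
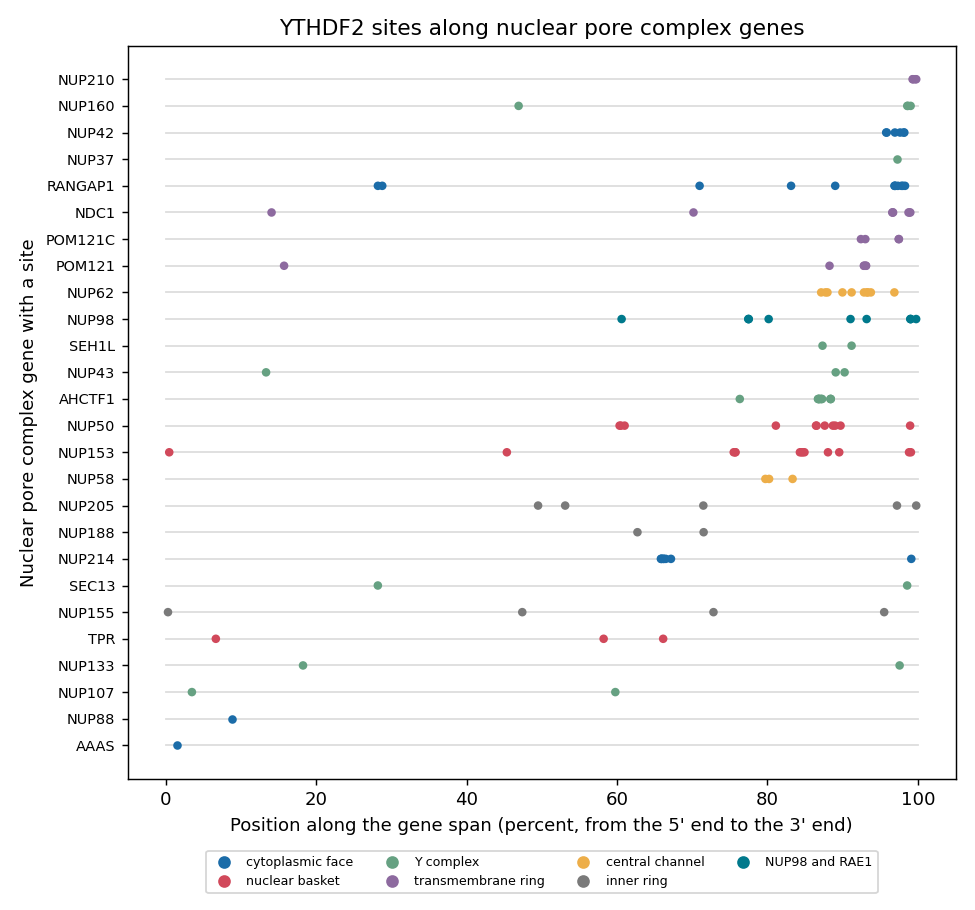
Position of each YTHDF2 site along the gene span (horizontal axis, percent from the 5′ to the 3′ end) in 26 nuclear pore genes, RANBP2 left out, coloured by place in the pore. Of 139 sites, 101 lie in the last 25%; the single sites of AAAS and NUP88 lie near the 5′ end.

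Chains of 3 or more sites, each at most 1 kb from the next, numbered 20 in 13 pore genes and held 104 of 167 sites (62.3%). Chains were not counted over all genes, so this share does not mark pore genes as more clustered. A neighbour within 50 nt was present for 40 sites (24.0%, interval 17.7 to 31.2), against 29.7% over all genes. A neighbour within 1 kb was present for 116 sites (69.5%, interval 61.9 to 76.3), a lower share than the 83.7% over all genes.

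Other genes of nuclear transport and of the nuclear envelope, 71 in 6 lists, had a site in 56 cases (78.9%) and 270 sites in all, with a median of 4 over bound genes. Importins and transportins, the import receptors, had sites in 18 of 20 genes, led by IPO9 with 13, KPNA6 with 8 and KPNB1 with 7. Exportins had sites in 6 of 7, led by XPO6 with 9, while CSE1L, XPO1 and XPO5 had 4 each. All 5 Ran cycle genes had a site, with RCC1, the exchange factor of Ran, at 7, RANBP1 at 4 and RANBP3 at 3. The sites in RAN itself numbered 2, and the higher of their scores was 371, above any in a pore gene.

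Of 19 mRNA export genes 10 had a site, led by MCM3AP with 14, NXT1 with 7 and CHTOP and DDX19A with 6 each. Of the 7 pore-linked SUMO pathway genes all had a site, with PIAS1 at 7 and SENP1 at 5. Of 13 lamina and inner membrane genes 10 did, with LEMD3 at 13, TMPO at 12 and LMNB2 and TOR1AIP1 at 9 each. The share of sites at or above the list's median was 54.5% in pore genes and 53.3% in these 71 genes. RANBP2, the pore gene with the most sites, shared its count of 28 by span with 2 other genes, CHD7 and KAT6A on chromosome 8. That count includes the 3 sites that also lie in SOWAHC, and without them it was 25.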

How the data were processed

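YTHDF2 iCLIP2 libraries from HEK293T cells, 4 with STM2457 and 4 with DMSO per the labels, stand behind 1 deposited list with no header. The labels do not state whether the replicates of a group were cultured separately. The deposited score per site is the authors' own, with no stated scale or normalization. Per the submitters' processing notes, bedtools 2.27.1, UMI-tools 1.0.0, STAR 2.7.3a and FastQC 0.11.8 were used with the build GRCh38.p12. Their roles, the site caller and the pooling of libraries are not stated. The list has 0 columns for a single library.

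The 43178 rows were joined to 37613 positions, keeping the higher score of the 5565 on 2 rows. Positions count from 1. Spans came from a RefSeq table on GRCh38.p14 without 94 readthrough genes. The strand came from RefSeq gene starts for 30 pore genes, from the sites for AHCTF1 and NUP43, and was not known for GLE1, which has no site on either strand. Both sources gave the same strand in 99.9% of 6197 genes. A site in several spans counts for each. Intervals are exact binomial (Clopper-Pearson), cover counting error only and treat sites of 1 gene as separate. The counting step was tested on simulated data. Computation used Python 3.11.15, pandas 2.3.3 and scipy 1.17.1.

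The 33 genes, the groups and the lists were chosen with earlier results of these data known. All pore genes are named, those with 5 or more sites in depth, and otherwise the 3 genes with the most sites in each list, with ties and RAN added after the values were seen. A gene that this rule selects is not reported here. Gene span, not exons or sequence, was used throughout, so no site is assigned to coding sequence or untranslated region and no motif was read. Alternatives are given in the closing section.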

Additional observations from a re-analysis of the deposited data

How the results depend on the processing

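No paired analysis was possible because the list holds no value for any library. Over 10 measures, 38 of 44 values under alternative settings stayed within 1.5 times (counts) or within the 95% interval (shares and medians). With scores at or above the list's median alone, the pore genes had 91 sites in 21 genes. Of these sites 0% were in the first 1 kb, 26.4% were on 2 rows and 70.3% lay in phenylalanine-glycine genes. Shares over all genes at this threshold are not given, and positions on 2 rows enter with their higher score. With 2 kb windows, 25.7% of sites were at the 3′ end. Without RANBP2, POM121 and POM121C, 48.1% of sites were in phenylalanine-glycine genes. The settings on phenylalanine-glycine genes and the one without the RANBP2 sites in SOWAHC (164 sites in all) were chosen after seeing the data. A stricter score leaves fewer sites and a wider window takes in more by construction. Some of the 38 values could not move. Merging sites within 50 nt cannot leave a gene without a site. Adding NUP35, which has no site, to the phenylalanine-glycine genes cannot change their share of sites. Depth is unknown, so a gene with no listed site cannot be told from one with too few reads.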

Other observations

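Of the pore gene positions, 26 (15.6%) were on 2 rows of the list, against 14.8% over all genes, in 13 genes. The 2 scores of a position often differed: their medians were 4.93 for the lower and 31.3 for the higher, and 13 of 26 differed by more than 10-fold. In RANBP2, the position 108765174 had scores of 0.020 and 69.0, while 108782767 had 90.8 and 128. In NUP153, 17637363 had 146 and 160. By the order of rows the list falls into a shorter part of 8935 rows and a longer part of 34243 rows, which no label ties to a treatment. Pore gene sites in the shorter part alone numbered 18 (10.8%, against 8.96% of all positions), with a median score of 3.69, and those in the longer part alone 123 (73.7%, against 76.2%), with a median of 10.2.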
